A study of Homo sapiens with 12 samples.

Results

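LY6D, LY6K and LYPD3 encode small surface proteins of the LY6/uPAR family, and are 3 of the 33514 gene symbols in the count matrices of 3 established lines of head and neck squamous cell carcinoma (HNSCC). They were chosen by their measured values in these same data, namely their level in each line, the share of cells with a transcript and their change with cetuximab, so those 3 readouts are given as a description with no test. SCC1, SCC6 and SCC25 cells had been treated daily for 5 days with 100 nM of cetuximab, an inhibitory antibody to the EGF receptor (EGFR), or with PBS (phosphate-buffered saline) as control. Each of the 6 groups had 2 replicates, which made 12 samples, and each sample held cells of a single line. Transcripts of single cells had been counted from their 3′ ends by droplet sequencing (10x Genomics) as unique molecular identifiers (UMIs), each of which stands for 1 captured transcript. The matrices held 5270 SCC1, 9724 SCC6 and 8920 SCC25 cells, with 57057402 to 112170073 UMIs per sample and 24078.5 to 54864 UMIs in the median cell.

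Proteins of the LY6/uPAR family fold into a 3-fingered domain held by disulfide bonds, and most are tied to the outer membrane by a glycosylphosphatidylinositol (GPI) anchor instead of a transmembrane segment. LY6D, also known as the E48 antigen, is a keratinocyte protein of stratified epithelia with a role in cell-cell adhesion, and antibodies to it have been used as carriers for radioisotopes in HNSCC. LY6K is a cancer-testis antigen, which is found mainly in testis among normal tissues and again in several carcinomas. LYPD3, also known as C4.4A, marks suprabasal cells of squamous epithelium, and binds laminins and the secreted protein AGR2.

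In the RefSeq annotation of GRCh38.p14, LY6K lies at chr8:142700111-142705127 and LY6D at chr8:142784882-142786539. Only 79.8 kb separate the end of LY6K from the start of LY6D, and 6 annotated protein-coding genes lie between them, of which SLURP1, LYPD2, SLURP2 and LYNX1 belong to the same family. LYPD3 lies apart from this cluster, at chr19:43460787-43465608. The deposited matrices gave symbols only, and all of these symbols were matched by name.

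The libraries matched their labels as squamous epithelium. Of 9 squamous epithelial markers (among them keratins and desmosome genes), 9 in SCC1, 8 in SCC6 and 9 in SCC25 reached 1 CPM (UMI counts scaled to a common library size, the usual unit) in every sample, with a summed level of 1228 to 14502. Markers of immune cells summed to at most 2.73 CPM and those of endothelium to at most 0.730. Markers of fibroblasts, some of which carcinoma cells also use, summed to 1.13 to 82.9. Between replicates, 3 to 10 cell barcodes were in common, and between other pairs of samples 1 to 13.

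LY6D was highest in SCC25 and was lower after cetuximab in every line. Levels are given here in CPM with TMM scaling, which sets the bulk of genes level between samples. In SCC25, PBS replicates 1 and 2 held 802 and 1920 CPM of LY6D and the cetuximab replicates 186 and 537. In SCC1, the levels were 19.5 and 24.2 with PBS and 7.98 and 14.7 with cetuximab. In SCC6, they were 9.62 and 5.64 with PBS and 3.49 and 2.02 with cetuximab. Both cetuximab samples thus lay under both PBS samples in all 3 lines. The untreated lines ranked SCC25, SCC1 and SCC6 with no overlap between neighbours. The share of all genes that separate untreated lines in this way was not counted for any pair of lines. A lower level with cetuximab without overlap was common with 2 samples a group. It was found for 20.4% of the 17897 genes tested in SCC1, 21.4% in SCC6 and 15.3% in SCC25. SCC1 had a log2 change (cetuximab minus PBS, edgeR fit to all samples) of -0.94 ± 0.56 (SE), SCC6 of -1.47 ± 0.57 and SCC25 of -1.91 ± 0.57. This fit did not pair samples by replicate number, and values from a fit that did are given further on. Replicate 2 of SCC25 held more LY6D than replicate 1 in both treatments, so that the changes within replicate numbers, -2.11 and -1.84, were closer to each other than the levels were.

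LY6K was detected in all 3 lines, and was much lower after cetuximab in SCC6. In this line, PBS replicates 1 and 2 held 41.9 and 34.5 CPM of LY6K and the cetuximab replicates 6.44 and 8.29. The log2 change was -2.37 ± 0.23 (SE), that is, a level 5.19-fold lower. In SCC1, LY6K stood at 74.4 and 72.9 with PBS and at 51.1 and 64.8 with cetuximab. This gave a log2 change of -0.35 ± 0.22 with no overlap between treatments. In SCC25, LY6K stood at 279 and 229 with PBS and at 245 and 195 with cetuximab, where the treatments overlapped and the log2 change was -0.21 ± 0.22. Untreated levels ranked SCC25, SCC1 and SCC6, as for LY6D, and again no neighbouring lines overlapped, without a share over all genes to set beside this.

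LYPD3 had another order of lines, and its treatments overlapped in every line. PBS replicates 1 and 2 held 37.8 and 95.4 CPM of LYPD3 in SCC6, 23.5 and 53.8 in SCC25 and 5.17 and 7.58 in SCC1. SCC6 and SCC25 overlapped, whereas SCC1 lay under both. With cetuximab, LYPD3 stood at 30.1 and 62.7 in SCC6, at 28.7 and 38.0 in SCC25 and at 5.87 and 8.59 in SCC1. This gave a log2 change of -0.52 ± 0.52 (SE) in SCC6, -0.21 ± 0.52 in SCC25 and 0.18 ± 0.52 in SCC1. Replicate 2 was above replicate 1 in all 6 groups. With the replicate block, the LYPD3 change was -0.47 ± 0.19 in SCC6, -0.11 ± 0.19 in SCC25 and 0.18 ± 0.19 in SCC1.

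**Figure D1:**
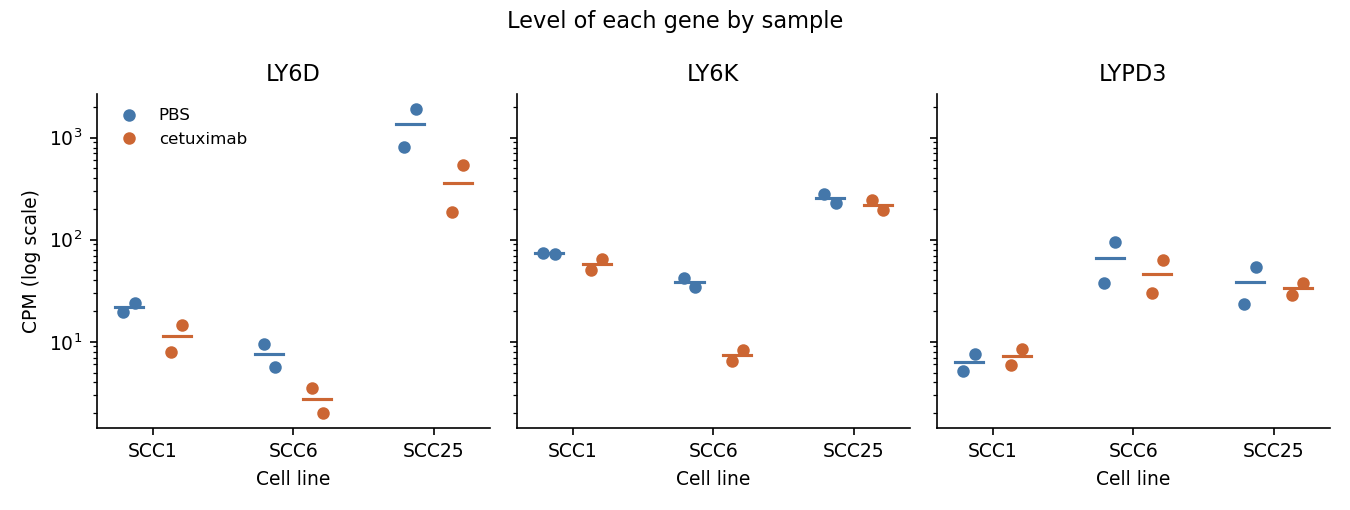
Level of LY6D, LY6K and LYPD3 in each sample, in CPM with TMM scaling on a log axis, by cell line. Points are replicates (2 per group), short bars are group means, and colours separate PBS from cetuximab. LY6D lies lower with cetuximab in each line, LY6K in SCC6 goes from 41.9 and 34.5 to 6.44 and 8.29, and the LYPD3 points of both treatments overlap.

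Of the 3 genes, LY6D and LY6K had no overlap between treatments in SCC1 and in SCC6, and LY6D alone in SCC25, each of them toward lower levels, so this count is to be read beside the shares of all genes above. Among 17897 genes tested with the quasi-likelihood test of edgeR, with a false discovery rate (FDR, Benjamini-Hochberg) under 0.05, 0.0168% were called higher and 0% lower in SCC1, 2.51% higher and 1.3% lower in SCC6, and 0% higher and 0% lower in SCC25. Genes with an unadjusted p under 0.05 numbered 1570 in SCC1, 3561 in SCC6 and 1041 in SCC25. A block for the replicate number within each line raised the share called higher to 2.46% in SCC1, 9.94% in SCC6 and 0.771% in SCC25, and the share called lower to 1.99%, 10.1% and 0.207%. DESeq2 called 1.7% of genes in either direction in SCC1, 9.6% in SCC6 and 0.617% in SCC25. Scaling by TMM moved every log2 change in SCC6 by -0.23 against library size alone, and by less than 0.1 in the other lines. With library size alone and without the cell that held most LY6K in each sample, the log2 ratio of LY6K means in SCC6 was -2.15.

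In single cells, the 3 genes differed in how they were spread over a culture. To compare shares of positive cells (at least 1 UMI) at equal depth, each cell was thinned at random to 15000 UMIs. In SCC25, LY6D was detected in 85.2% and 95.2% of cells with PBS and in 49.6% and 72.4% with cetuximab. Without thinning, these shares were 93.7%, 99.2%, 69.6% and 89.5%. Genes that squamous cells should lack (PTPRC, CD3E, ALB and HBB) were seen in at most 0.183% of thinned cells, or 0.345% of cells at full depth, in any sample. In SCC1, LY6D was detected in 13.6% and 20.6% of cells with PBS and in 7.78% and 12.1% with cetuximab, and in SCC6 in 10.7% and 7.92% against 5.32% and 2.93%. Since the 4 genes are near absent from these cultures, they do not measure free LY6D transcripts, whose part in these shares was not tested.

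The distribution of LY6D over cells was broad in SCC25, whereas no thinned SCC6 cell held more than 4 UMIs of it. In SCC25 with PBS, positive cells held a mean of 15.4 and 31.2 UMIs of LY6D, and single cells held up to 425 and 591. With cetuximab the means were 6.15 and 13.3 and the maxima 146 and 335. The 10% of SCC25 cells richest in LY6D held 58.4% and 46.8% of its UMIs with PBS and 72.7% and 63.3% with cetuximab. The log2 ratio of mean UMIs per cell in SCC25 was -1.76, beside log2 ratios of -0.56 for the mean share of positive cells and -1.26 for the mean UMIs per positive cell. In SCC1 a few cells stood out, since 1 cell held 16.8%, 2.99%, 16.7% and 15.8% of all LY6D UMIs in PBS replicates 1 and 2 and cetuximab replicates 1 and 2. Without the richest cell of each sample, LY6D means gave a log2 ratio of -1.01 for SCC1, -1.23 for SCC6 and -1.88 for SCC25, and the treatments still had no overlap in any line.

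**Figure D2:**
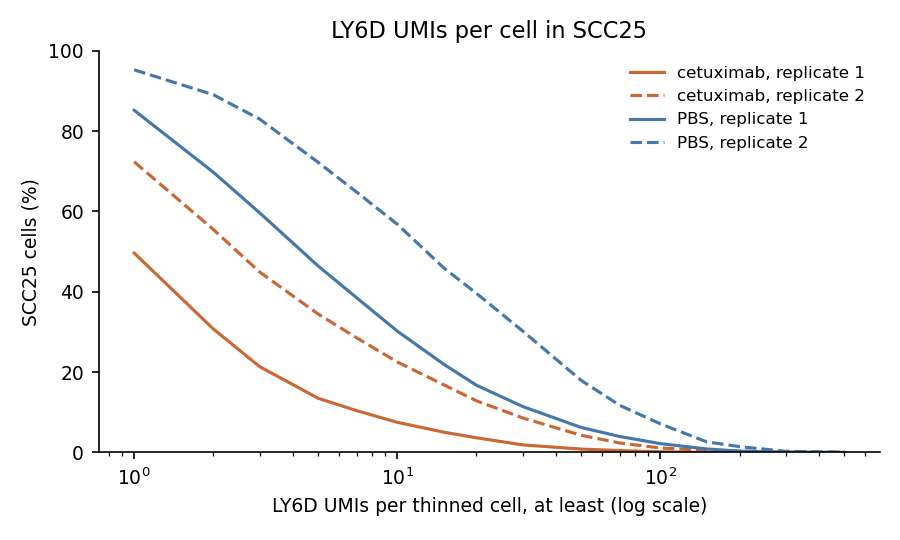
Share of SCC25 cells (percent, vertical axis) that held at least a given number of LY6D UMIs after thinning to 15000 UMIs per cell (horizontal axis, log scale), with 1 line per sample. Both PBS samples lie above both cetuximab samples at low thresholds. PBS replicate 1 and cetuximab replicate 2 run close together toward the high end, with 30.2% and 22.5% of cells at 10 UMIs or more.

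LY6K was spread more evenly over cells than LY6D in SCC25 and SCC1, whereas counts in SCC6 were too low to tell. The variance of LY6K UMIs over their mean was 1.46 to 1.80 in SCC25, against 29.8 to 70.9 for LY6D. In SCC1 it was 1.32 to 1.55 against 5.16 to 56.0. In SCC6 it was 1.54 and 1.37 against 1.09 and 1.05 with PBS, and 1.28 and 1.23 against 1.07 and 1.19 with cetuximab. The richest 10% of SCC6 cells with PBS held 51.7% and 51.8% of LY6K UMIs, against 93.9% and 100% for LY6D. With cetuximab they held 100% for both genes. Both measures depend on the mean where counts are this low, and so do not rank the genes in SCC6. LY6K was detected in 95.6% and 91.8% of SCC25 cells with PBS and in 93.3% and 90.2% with cetuximab, and the richest 10% of cells held 22.9% to 25.0% of its UMIs. In SCC1, 67.3% and 62.5% of cells were positive with PBS and 51.9% and 56.3% with cetuximab. In SCC6, the share was 33.2% and 30.2% with PBS and 8.45% and 9.64% with cetuximab. In SCC6 the log2 ratio was -1.81 for the share of positive cells and -0.31 for the UMIs per positive cell, whose mean went from 1.49 and 1.39 to 1.15 and 1.17. With means of 0.458 UMIs per cell with PBS and 0.105 with cetuximab, positive cells lie near their floor of 1 UMI. At such low counts, the split cannot tell fewer expressing cells from less LY6K per cell. No SCC6 cell held more than 10 UMIs of LY6K after thinning.

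LYPD3 was detected in 8.64% and 11.6% of SCC1 cells with PBS and in 10.2% and 12.5% with cetuximab. In SCC6, 35.5% and 66.9% of cells were positive with PBS and 32.6% and 55.3% with cetuximab. In SCC25, the shares were 27.0% and 46.3% against 31.1% and 37.6%. Positive cells held a mean of 1.09 to 1.87 UMIs over all samples, and no cell held over 14.

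**Figure D3:**
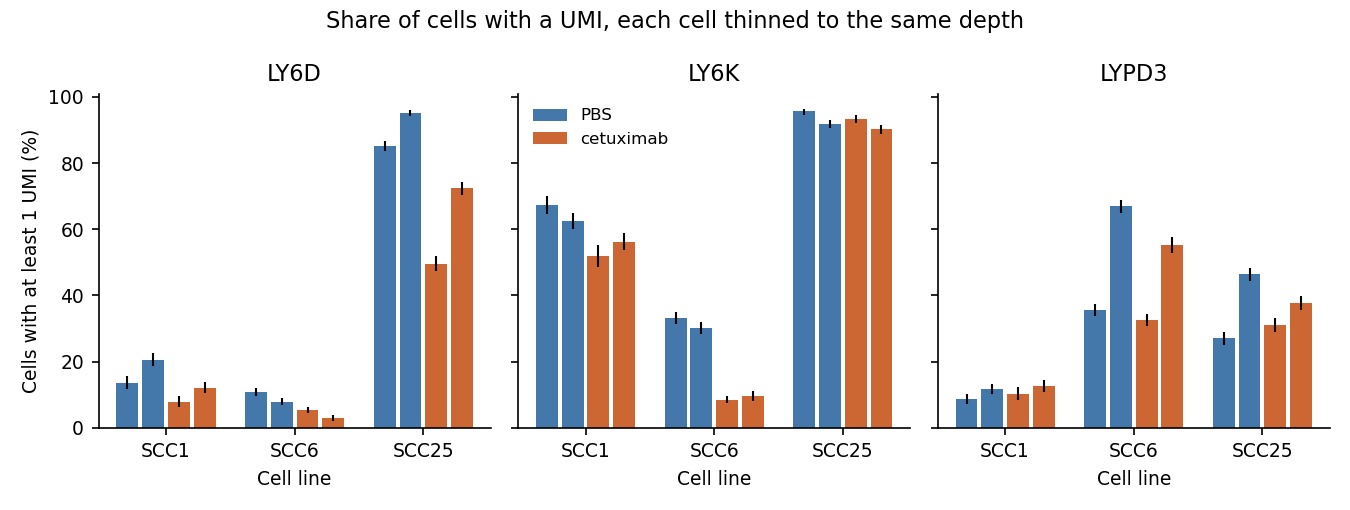
Share of cells with at least 1 UMI (percent) of LY6D, LY6K and LYPD3 after thinning, with 1 bar per sample in the order PBS replicates 1 and 2, cetuximab replicates 1 and 2. Error bars are exact 95% binomial intervals, which cover counting error only. LY6K is found in at least 90.2% of cells in every SCC25 sample, LY6D in 49.6% to 95.2% of them, and LY6K drops to under 10% of SCC6 cells with cetuximab.

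For LYPD3, the promoter was at hand, and is shown because TFAP2A, a transcription factor of epithelia, is one of the splits of cells tested for this gene further on. The sequence is that of RefSeq (GRCh38.p14, chr19:43465559-43465858, minus strand) and runs from 250 bases before to 50 bases after the start of the gene. Capitals mark the match to the TFAP2 motif GCCNNNGGC.

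LYPD3: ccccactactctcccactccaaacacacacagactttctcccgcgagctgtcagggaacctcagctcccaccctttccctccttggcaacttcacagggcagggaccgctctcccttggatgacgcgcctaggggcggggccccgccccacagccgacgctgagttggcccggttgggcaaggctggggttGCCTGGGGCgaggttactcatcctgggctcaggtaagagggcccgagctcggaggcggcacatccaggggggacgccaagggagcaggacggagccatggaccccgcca

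The single match begins 59 bases before the start (position -59), and the motif reads the same way on both strands. It occurs in 23.2% of the 35116 promoters of this length in RefSeq. This share was not matched for base content, and 67.0% of the LYPD3 window is G or C, beside a median of 58.7% over these promoters. The AP-1 motif TGANTCA, also searched on both strands, has no match in this window and is found in 7.71% of promoters. A match of letters is a description and does not show binding.

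Whether the 3 genes marked particular cells within a sample was tested apart from the readouts that chose them, by comparing classes of cells of the same sample. Mean UMIs per thinned cell were compared between the classes as a log2 ratio (with 0.01 UMIs added), and the ratios were tested over samples with an exact two-sided sign-flip permutation test, with Benjamini-Hochberg adjustment over all 12 tests. Samples of the same line entered this test as if they were independent. Cells at or above the 90th percentile of summed UMIs for a list of 34 squamous differentiation genes, which are used in the upper layers of squamous epithelium, were set against the remaining cells.

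LY6D was higher in the squamous-high cells in 12 of 12 samples, with a mean log2 ratio of 1.28 ± 0.88 (SD; exact permutation test, adjusted p = 0.0029). In SCC25 with PBS, squamous-high cells held 33.1 and 81.2 UMIs of LY6D against 10.7 and 23.7 in the others. The mean ratio was 1.84 in SCC1, 1.58 in SCC25 and 0.44 in SCC6. In cetuximab replicate 2 of SCC1, which had the largest ratio of 3.32, a single cell held 159 of the thinned LY6D UMIs. Without the richest cell of each sample the mean over all samples was 1.17 (adjusted p = 0.0020 in the same permutation test). LYPD3 was also higher in squamous-high cells, in 11 of 12 samples, with a mean log2 ratio of 0.80 ± 0.71 (exact permutation test, adjusted p = 0.0103). Its ratio was 1.55 in SCC1 and 0.83 in SCC25 but 0.01 in SCC6, where the samples ranged from -0.21 to 0.13. LY6K did not pass the test, with a mean log2 ratio of -0.04 ± 0.17 and a range of -0.24 to 0.27 over samples (adjusted p = 0.404 in the exact permutation test).

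Cells in G2 or mitosis were taken as those with 5 or more of 10 G2/M genes detected, and were set against cells with at most 1. LY6D was lower in G2/M cells in 11 of 12 samples, with a mean log2 ratio of -1.09 ± 0.57 (SD; exact permutation test, adjusted p = 0.0039). LYPD3 was lower in 12 of 12 samples, by -0.62 ± 0.46 (exact permutation test, adjusted p = 0.0029). LY6K went the other way and was higher in G2/M cells in 9 of 12 samples, with a ratio of 0.23 ± 0.27 (exact permutation test, adjusted p = 0.0303). The call on LY6K was lost when any 1 of 7 samples was left out (cetuximab replicate 1 of SCC1, PBS replicate 2 or cetuximab replicate 2 of SCC6, or any sample of SCC25), with ratios of 0.19 to 0.23 and adjusted p of 0.0508 to 0.0605 in the permutation test. For LY6D the ratio was -1.66 in SCC1, -1.09 in SCC25 and -0.52 in SCC6.

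The numbers of cells in these classes moved with cetuximab. In SCC1, for example, 740 and 980 G2/M cells stood against 212 and 261 cells of the other class with PBS, and 206 and 525 against 597 and 464 with cetuximab. The part of this shift in the levels of whole samples was not tested, but values within classes are at hand. Among G2/M cells of SCC25, LY6D averaged 9.02 and 20.8 UMIs with PBS and 2.24 and 5.80 with cetuximab (log2 ratio of means -1.89). Among the cells with at most 1 G2/M gene it averaged 26.5 and 38.6 against 4.30 and 11.5 (log2 ratio -2.04). LY6K in SCC6 likewise gave log2 ratios of -2.05 and -2.21 in the 2 classes. In SCC1 the squamous-high cells held 1.01 and 1.23 UMIs of LY6D with PBS and 0.234 and 1.91 with cetuximab, so that the treatments overlapped (log2 ratio of means -0.06), beside a ratio of -1.07 in the other cells. The 1.91 is the mean of 138 cells that include the single cell with 159 UMIs. The overlap and the ratio of -0.06 therefore rest on that cell, and no value without it is given for this class.

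Cells with a UMI of VIM, the gene for the mesenchymal filament protein vimentin, were set against cells without one in SCC6 and SCC25, since VIM-positive cells were rare in SCC1. LYPD3 was lower in VIM-positive cells in 7 of 8 samples, with a mean log2 ratio of -0.25 ± 0.21 (SD; exact permutation test, adjusted p = 0.0402). This call did not hold when any 1 of 7 of the 8 samples was left out, all but PBS replicate 1 of SCC6, with ratios of -0.27 to -0.20. LY6D had a mean ratio of -0.83 ± 0.98 that did not pass (adjusted p = 0.0938, exact permutation test), but that did without cetuximab replicate 2 of SCC6, with -1.07 (adjusted p = 0.0332 in the same permutation test). By line, the LY6D ratio was -1.65 in SCC25, where all 4 samples lay between -1.96 and -1.38, and -0.01 in SCC6, where they lay between -0.57 and 0.84. LY6K had a ratio of -0.44 in SCC6 and of 0.10 in SCC25, and -0.17 ± 0.35 over both lines (adjusted p = 0.281, exact permutation test).

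VIM-positive cells were more frequent with cetuximab in SCC6, with 2392 and 1502 positive against 200 and 137 negative cells, compared with 478 and 860 against 2174 and 1576 with PBS. Within VIM-positive cells of SCC6, LY6K averaged 0.385 and 0.337 UMIs with PBS and 0.0966 and 0.106 with cetuximab (log2 ratio -1.74). Within VIM-negative cells the ratio was -1.67. LY6D in SCC25 was lower with cetuximab in VIM-positive cells, with a log2 ratio of -1.58, and in VIM-negative cells, with -1.43.

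Cells with and without a UMI of TFAP2A differed little in the 3 genes. LY6K was lower in TFAP2A-positive cells in 10 of 12 samples, by a mean log2 ratio of -0.08 ± 0.09 (SD; exact permutation test, adjusted p = 0.0199), but the ratio was 0.02 without thinning and the call was lost. LY6D had a ratio of 0.14 ± 0.42 (adjusted p = 0.305) and LYPD3 of 0.06 ± 0.13 (adjusted p = 0.196), neither of which passed the exact permutation test.

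**Figure D4:**
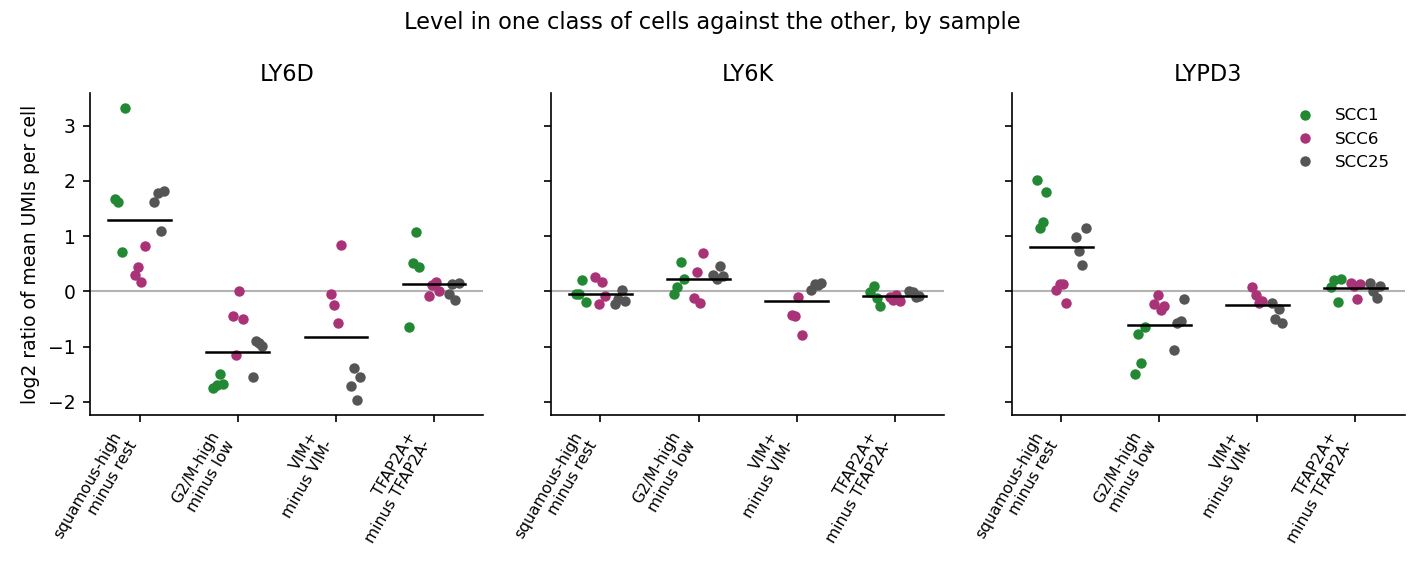
Log2 ratio of mean UMIs per thinned cell between classes of cells, for LY6D, LY6K and LYPD3. Each point is a sample, coloured by line, and the black bar is the mean over samples (12, or 8 for VIM). The means of LY6D and LYPD3 lie above 0 for squamous-high cells and under 0 for G2/M cells, SCC6 has the line mean nearest to 0 in each case, and 2 of its points lie across 0 (LYPD3 at -0.21 for squamous-high and LY6D at 0.01 for G2/M cells in 1 sample each), and LY6K stays near 0 for most splits.

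The lines differed in some of these ratios by more than their samples overlapped, but no difference passed correction. Over 30 comparisons of 2 lines, 8 had the smallest raw p that 4 against 4 samples allow (0.0286 in an exact two-sided permutation test), which came to an adjusted p of 0.107. Among them were the LYPD3 ratio for squamous-high cells, which was 1.54 higher in SCC1 than in SCC6 and 0.82 lower in SCC6 than in SCC25, and the LY6D ratio for VIM, which was 1.64 higher in SCC6 than in SCC25.

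The genes were also compared with each other within cells. In SCC25, cells positive for both LY6D and LYPD3 were 1.02 to 1.10 times as frequent as the product of both shares, and Pearson r of log2(UMIs + 1) over cells was 0.14 to 0.26 in the 4 samples. In SCC1 the ratio was 1.08 to 1.87 with r of 0.02 to 0.14, and in SCC6 r was -0.0035 to 0.05. LY6D and LY6K, although neighbours in the genome, had r between -0.04 and 0.08 in all 12 samples. LY6K and LYPD3 had r of -0.09 to -0.03 in SCC25, -0.08 to -0.0061 in SCC1 and 0.03 to 0.07 in SCC6. These values are descriptions, since cells of a sample share its library and most cells hold few UMIs of either gene. All 3 genes were detected together in 22.3% and 40.9% of SCC25 cells with PBS and in 15.7% and 25.9% with cetuximab, but in at most 1.89% of cells in any SCC1 or SCC6 sample.

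Among 5314 genes with a mean of 20 or more CPM, those whose counts followed a gene most closely over thinned cells were named (5 for each gene, mean r within the 12 samples). For LY6D they were AQP3 (r = 0.29), RHOV (0.21), FXYD3 (0.20), KRT13 (0.19) and IGFL2-AS1 (0.19). For LYPD3 they were SFN (0.13), AQP3 (0.13), PERP (0.12), KRT6A (0.12) and CD9 (0.12). Those of LY6K were RPL8 (0.15), RPS2 (0.13), PPP1R14B (0.12), CYC1 (0.11) and RPL30 (0.11). Of these 5, RPL8, CYC1 and RPL30 lie on chromosome 8 with LY6K, while none of the 5 genes named for LY6D does. Single samples varied widely around these means. For LY6D, r ranged from 0.02 to 0.61 for AQP3, -0.01 to 0.43 for RHOV and -0.01 to 0.46 for FXYD3. It ranged from -0.0041 to 0.46 for KRT13 and 0.0038 to 0.35 for IGFL2-AS1. The first genes of LYPD3 and LY6K ranged from 0.04 to 0.26 (SFN) and from 0.04 to 0.27 (RPL8). Across the 12 samples, with each line centred on its own mean of log2(CPM + 1), the closest genes were MYLIP (r = 0.96) for LY6D, YDJC (0.98) for LY6K and SPRYD4 (0.97) for LYPD3. Next came OARD1, RPL4, ALDH3A1 and ATP5MC2 for LY6D (0.90 to 0.94), ZC3H15, SNU13, IMP4 and SNX8 for LY6K (0.96 to 0.97) and CDC123, TIMMDC1, MRPL1 and ALAS1 for LYPD3 (0.97). All of these samples share the 2 treatments, so genes that differ between treatments correlate whatever their function.

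Around the 3 genes, the other LY6/uPAR family genes were mostly rare, and 17 of them passed the filter on low counts. By edgeR none was called with cetuximab in any line, with 2, 7 and 0 of the 17 at an unadjusted p under 0.05 (SCC1, SCC6 and SCC25 in this order). Over all 17897 genes, 1570, 3561 and 1041 were under that p. DESeq2 called 0, 3 and 0 family genes, beside 1.7%, 9.6% and 0.617% of all genes. The median log2 change of the family genes in these lines was 0.04, -0.41 and -0.07, beside 0.00, 0 and -0.01 over all genes tested. With the replicate block, 5 family genes were called lower in SCC6, namely LY6E, PSCA, LYPD2, LYPD6B and PLAUR, and 1 was called higher in SCC1, LY6G6C. The block called 10.1% of all genes lower in SCC6 and 2.46% higher in SCC1. PSCA, which borders LY6K in the genome and encodes prostate stem cell antigen, held 16.7 and 7.22 CPM in SCC6 with PBS and 2.63 and 1.42 with cetuximab. Its log2 change was -2.57 ± 0.64 (SE; edgeR FDR = 0.0544, and 0.00087 with the block). LY6E, an interferon-induced member, stood at 790 and 630 against 456 and 443 in SCC6 (edgeR FDR = 0.138, and 0.0401 with the block). PLAUR, the urokinase receptor, stood at 38.2 and 45.0 against 13.2 and 24.7 (edgeR FDR = 0.183, and 0.0379 with the block). In SCC25, by contrast with LY6D, LY6E stood at 1295 and 1625 with PBS and at 2420 and 1686 with cetuximab, and CD59, an inhibitor of complement, at 173 and 281 against 328 and 284. Neither passed the test there. LYPD1, LYPD5 and LYPD6 had log2 changes of -0.81 to 0.57 over the 3 lines, and none passed.

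**Figure D5:**
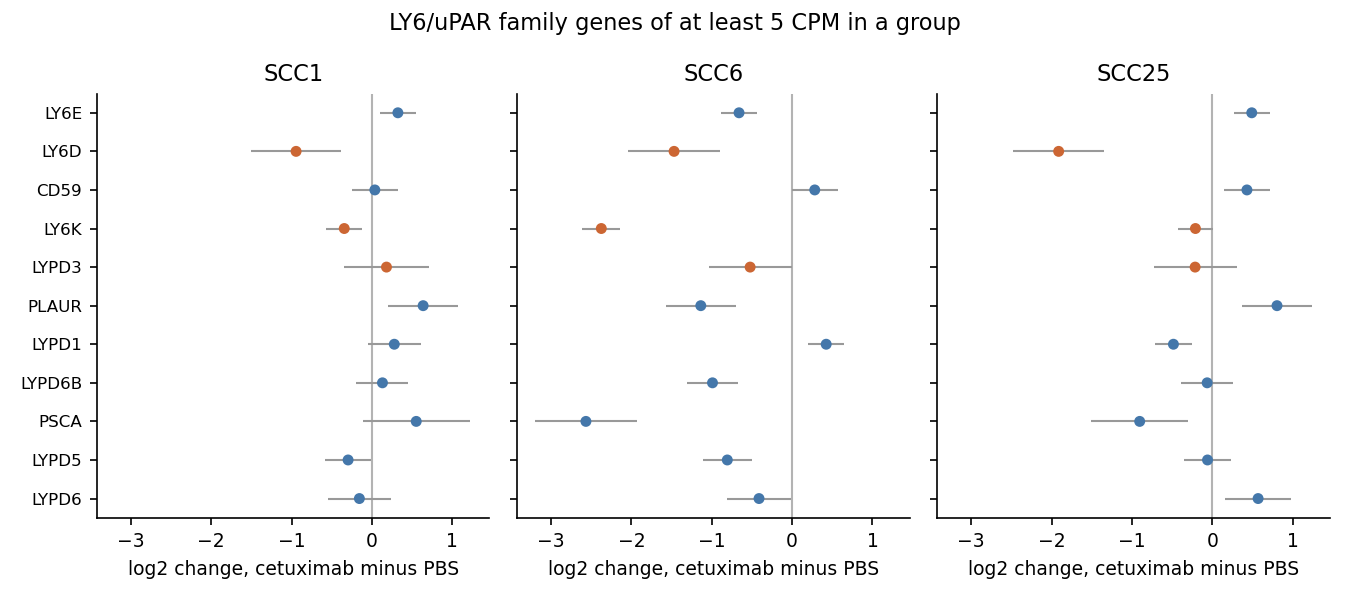
Log2 change (cetuximab minus PBS, horizontal axis) of the LY6/uPAR family genes that reached a mean of 5 CPM in any group, by line. Points are estimates from the edgeR fit, bars are standard errors, orange marks LY6D, LY6K and LYPD3, and genes are ordered by their highest level. LY6K and PSCA lie at -2.37 and -2.57 in SCC6, and LY6D lies under 0 in all 3 lines.

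Of the GPI anchor pathway, which these proteins need to reach the surface, 31 genes were tested and none was called by edgeR in any line, with 1, 3 and 2 at an unadjusted p under 0.05 in SCC1, SCC6 and SCC25. DESeq2 called 0 in each line. With the block, PIGM and PIGZ were called higher and PIGA lower in SCC6, where it called 9.94% of all genes higher and 10.1% lower. Of 11 genes for binding partners and neighbours on the cell surface, AGR2, a ligand of LYPD3, fell in SCC6 from 44.8 and 26.5 CPM to 3.09 and 3.01 (log2 change -3.55 ± 0.67, edgeR FDR = 0.0217). The membrane protease gene MMP14 rose in SCC6 from 27.2 and 34.0 to 132 and 128 (2.09 ± 0.19, edgeR FDR = 0.0021). The remaining 9 did not pass in SCC6, and in SCC1 and SCC25 0 of the 11 passed, with 4 and 3 at an unadjusted p under 0.05 and 1 and 0 called by DESeq2. With the block, LAMA5, LAMA3 and MMP14 were called higher in SCC1, and the AGR2 relative AGR3 was called lower in SCC6 beside the genes above.

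Of the squamous differentiation list that defined the cell class, 25 genes were tested. In SCC6, TGM1, a transglutaminase of the cornified envelope, rose from 0.788 and 0.751 to 2.30 and 4.32 CPM (edgeR FDR = 0.0457), whereas CEACAM6 fell from 2.14 and 0.599 to 0.0387 and 0.0885 (edgeR FDR = 0.0465) and S100A7 from 0.943 and 0.827 to 0.0129 and 0.0111 (edgeR FDR = 0.0085). The other 22 did not pass in SCC6. There, 9 of the 25 had an unadjusted p under 0.05, and DESeq2 called 1 higher and 3 lower, beside 9.6% of all genes in either direction. None passed in SCC1 and SCC25, with 3 and 2 at an unadjusted p under 0.05, and DESeq2 called 0 in both. The list had a median log2 change of 0.00 in SCC1, of -0.27 in SCC6 and of -0.45 in SCC25, beside the same medians over all genes as above. With the block, TGM1 was called higher and CLCA2 lower in SCC1, 3 genes were called higher (IVL and ECM1 beside TGM1) and 7 lower in SCC6 (SBSN, GRHL1, KLK13, CLCA2 and SCEL beside CEACAM6 and S100A7), and KRT4 and KRT13 were called lower in SCC25, where KRT13 stood at 105 and 662 with PBS and at 12.7 and 242 with cetuximab.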

How the data were processed

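The authors had deposited UMI counts per gene and cell as whole numbers, in 1 matrix per line, made with Cell Ranger on GRCh38 per the labels (version not given in the sources used here). The deposited counts carried no normalisation, and all 23914 deposited cells were used. Counts of symbols on more than 1 row (33538 rows, 33514 symbols) were added. Samples and replicate numbers came from the labels. No doublet caller was run. Counts were summed per sample and tested with edgeR 4.0.16 (R 4.3.3; quasi-likelihood F-test, TMM, filterByExpr, 6 group means, 6 residual degrees of freedom, FDR under 0.05). DESeq2 1.42.0, other filters and factors, a replicate block and fits with a sample left out served as alternatives. Same-numbered samples deviated together (r = 0.69 in SCC1, 0.64 in SCC6 and 0.72 in SCC25 over 7558 genes). The changes by replicate number and the replicate block therefore pair the samples, whereas the main edgeR fit and its SEs do not. Whether replicates are separate cultures is not clear from the sources used here, and p-values measure only the spread between these samples. The permutation tests treat the samples as independent, which would not hold if replicates shared a culture.

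Cells were thinned to 15000 UMIs, which left out 851 cells and kept 23063. Intervals are exact Clopper-Pearson intervals at 95%. Class tests were run in Python 3.11.15 with numpy. Both tests were checked on simulated data, and only the edgeR result is given here. Of 100 genes made to change by 1 on the log2 scale in SCC6, edgeR called 14, and of 100 made to change by 2 it called 79, with 2 false calls among 17118 genes. The simulated samples were drawn independently, without the shared deviation of same-numbered samples, so these counts may not hold for the real data. The genes, lists and tests were chosen with earlier results of these data known. Genes named beyond the 3 were list genes called in any line, family genes with a mean of 5 or more CPM in a group, and the 5 genes most alike per measure. LY6G6C, LYPD2 and the genes called only with the block were named after their values were seen. One gene of the partner list is not reported here. The deposited tables held no other per-sample columns.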

Additional observations from a re-analysis of the deposited data

Results flagged for a closer look

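The cetuximab change of LYPD3 had opposite signs in SCC1 and SCC6. By replicate number, the log2 ratio of cetuximab to PBS was 0.18 and 0.18 in SCC1 and -0.33 and -0.61 in SCC6, a mean difference of 0.65. The difference itself was not tested, and the levels of the treatments overlapped in both lines.

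The LY6K ratio between VIM-positive and VIM-negative cells was under 0 in all 4 SCC6 samples and above 0 in all 4 SCC25 samples, with a difference of means (SCC6 minus SCC25) of -0.55 on the log2 scale. Permuting the samples of both lines (exact, two-sided) gave p = 0.0286, the smallest that 4 against 4 allow, and an adjusted p of 0.107 over 30 comparisons.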

How the results depend on the processing

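The 9 cetuximab log2 changes of LY6D, LY6K and LYPD3 moved by less than the spread between replicates in all 99 alternative fits. Among these were the replicate block, DESeq2, other cell filters and single samples left out. That spread pools the replicate differences of both treatments. With 2 replicates a group, leaving 1 out (36 of the 99 fits) could hardly move a change beyond it. Those 36 fits are therefore no check of stability by this measure, and their ranges are given instead. With 1 sample left out, the LY6D change ranged from -1.46 to -0.58 in SCC1, from -1.91 to -1.04 in SCC6 and from -2.87 to -1.15 in SCC25, where it was -2.87 without cetuximab replicate 2, -1.32 without cetuximab replicate 1 and -1.15 without PBS replicate 2. The LY6K change ranged from -0.53 to -0.19, from -2.58 to -2.20 and from -0.37 to -0.06 in these lines. The LYPD3 change ranged from -0.12 to 0.48 in SCC1, from -1.16 to 0.29 in SCC6 and from -0.69 to 0.51 in SCC25, and so crossed 0 in each line (without cetuximab replicate 2 or PBS replicate 1 in SCC1, and without PBS replicate 2 in SCC6 and SCC25). The count of other family genes called went from 0 to 1 in SCC1 with the replicate block and without the filter on low counts. In SCC6 it went from 0 to 5 with the replicate block, to 3 with DESeq2 and to 2 without the filter, and was 0 to 2 with 1 sample left out (2 without PBS replicate 2). The list genes whose calls the replicate block changed are those named above. Of 213 alternative values of the class ratios, 181 kept direction and side of the threshold.

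Without thinning, 3 ratios changed sign, to -0.050 for LY6D by TFAP2A, 0.024 for LY6K by TFAP2A and 0.083 for LY6K in squamous-high cells. Without the 5% of cells with most UMIs, 3 calls were lost, with ratios of 0.20 for LY6K in G2/M cells, -0.26 for LYPD3 by VIM and -0.075 for LY6K by TFAP2A. Without SCC1, LY6K in G2/M cells (0.25) and LYPD3 in squamous-high cells (0.42) no longer passed. Without SCC6, LY6K by TFAP2A (-0.063) no longer passed. Without SCC25, the ratios that no longer passed were -1.09 for LY6D, 0.19 for LY6K in G2/M cells, -0.10 for LY6K by TFAP2A and 0.78 for LYPD3 in squamous-high cells, and LY6K in squamous-high cells changed sign to 0.0044. With 1 line left, the VIM split has 4 samples and cannot reach the threshold, and the ratios were 0.10 for LY6K (a change of sign) and -0.40 for LYPD3 without SCC6, and -0.095 for LYPD3 without SCC25. The cause of these changes was not tested. With 1 sample left out, the ratio ranged from 0.19 to 0.27 for LY6K in G2/M cells, from -0.29 to -0.20 for LYPD3 by VIM, and from -1.07 to -0.67 for LY6D by VIM. Leaving out the cell richest in the gene, an alternative chosen after seeing the data, changed no call of the class tests.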

Other observations

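For LY6K, the 32 genes of 20 or more CPM within 5 Mb had a median r of 0.03 with it over cells, beside 0.0021 over all 5128 such genes with a known position, and 0.01 over the 181 on chromosome 8. Of these 3 sets 78.1%, 53.7% and 66.3% of genes were above 0. The median was -0.00041 for the 32 genes around LY6D, beside -0.01 over all, and 0.01 for the 71 genes around LYPD3, beside 0.00039 over all. These weak correlations are given as values only.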
